A study of Mus musculus with 37 samples.

Results

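The Fbxw gene cluster of mouse chromosome 9 is a row of paralogs expressed in oocytes. The 10 genes described here are Fbxw21, Fbxw13, Fbxw20, Fbxw14, Fbxw28, Fbxw22, Fbxw16, Fbxw19, Fbxw15 and Fbxw18, listed in their order along the chromosome. They were chosen by symbol: Fbxw21 had been singled out by the difference between its germinal vesicle (GV) and metaphase II (MII) levels in batch A of these data, and the others are paralogs beside it. The differences between GV and MII oocytes of batch A are therefore given as a description, without p-values. Standard errors and calls from the fit over all genes are printed beside them for scale, and nothing is supported with them. The 10 genes are among 54752 gene features in the count tables, and their 28 annotated transcripts are among 138835.

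F-box proteins are the substrate receptors of SCF ubiquitin ligases. In these complexes the F-box binds the adaptor Skp1, Skp1 binds the scaffold cullin Cul1, and a RING subunit such as Rbx1 recruits the E2 enzyme that transfers ubiquitin. Members of the Fbxw class carry WD40 repeats, which in the well-studied members hold the substrate. Fully grown oocytes stop transcribing before meiosis resumes, so that RNA present at metaphase was largely made earlier. Substrates of the 10 proteins are not given in the sources used here, and RNA levels do not measure ubiquitin ligase activity.

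RNA was sequenced from 37 single oocytes of C57BL/6 mice, 6 to 8 weeks old and primed with 5 IU of PMSG, by Smart-seq2. Batch A held 6 GV oocytes and 6 MII oocytes; batch B held 10 GV oocytes and 15 metaphase I (MI) oocytes. The ovary was the source of the GV oocytes (48 h after priming) and the oviductal ampulla that of the MII oocytes, which had matured in the animal for 15 h from the hCG injection. MI oocytes had been GV oocytes, stripped of their surrounding cells and kept for 8 h in M16 medium. The study's methods describe removal of the zona pellucida and of the polar body, without naming the stages. MI and MII thus differed in maturation in vitro and in vivo, as well as in batch, and were not compared with each other. Nothing in the labels states that the oocytes of a group came from different mice, so that p-values measure the spread between single oocytes.

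All 10 genes lie on the minus strand of GRCm38 (mm10), between 109139447 (the end of Fbxw21) and 109702700 (the start of Fbxw18) on chromosome 9, a span of 563.3 kb. The main coding transcript of every gene has 10 exons. To show how alike the paralogs are, the first 30 coding bases of each are printed from GENCODE M21, 5′ to 3′, with capitals where a base differs from Fbxw21. Each begins with the ATG start codon, within the first coding exon.
Fbxw21 (chr9:109161960-109161989): atggagatccatttgcctcgtttgcctctg
Fbxw13 (chr9:109195914-109195943): atggagatccatttgcctAgtGtgccGTtg
Fbxw20 (chr9:109234673-109234702): atggagGtccatttgcctAgAttgccATtg
Fbxw14 (chr9:109287610-109287639): atggagatccatttAcctAgtGtgccGAtg
Fbxw28 (chr9:109339593-109339622): atggagatccatttAcctAgtGtgccGAtg
Fbxw22 (chr9:109404234-109404263): atggagGtcTatttAcctAgtttgcctAtg
Fbxw16 (chr9:109449079-109449108): atggagatccatttAcctAgtttgcctAtg
Fbxw19 (chr9:109495818-109495847): atggagatccatCtAcctAgtttgcctAtg
Fbxw15 (chr9:109568201-109568230): atggCgatccatttAcctTgtttgccGAtg
Fbxw18 (chr9:109702620-109702649): atggagaCccatttgcctAgtttgcctAGT

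From 3 to 5 of these 30 bases differed from Fbxw21, and Fbxw14 and Fbxw28 were identical to each other here. Over the whole coding sequence (aligned with MAFFT), the identity of the 45 pairs of genes ranged from 79.8% for Fbxw14 and Fbxw15 to 99.1% for Fbxw14 and Fbxw28, with a median of 84.1%. Fbxw22 was the next closest to that pair, at 92.6% with Fbxw14 and 92.2% with Fbxw28. Fbxw21 was closest to its neighbours Fbxw13 (87.2%) and Fbxw20 (86.2%). The heat map of coding identity shows Fbxw14, Fbxw28 and Fbxw22 as a block and Fbxw15 as the most distant gene from it.

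**Figure D1:**
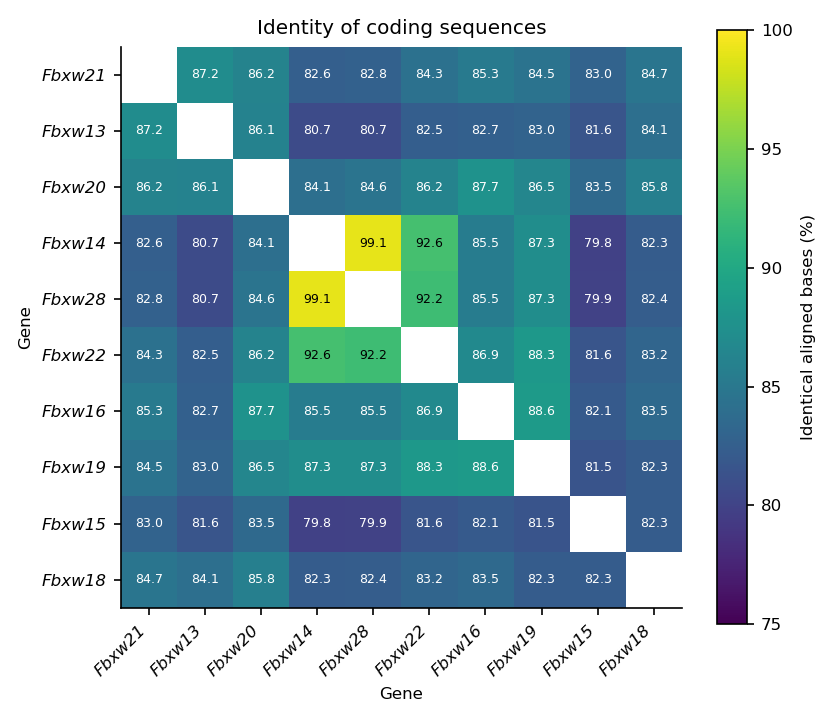
Share of identical aligned coding bases (%) for each pair of the 10 genes, in their order along the chromosome. Fbxw14 and Fbxw28 share 99.1% and the lowest pair, Fbxw14 and Fbxw15, shares 79.8%.

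Promoters were searched for short strings. RefSeq promoter windows on GRCm38.p6, which run from 250 bases before to 50 bases after each start site, were found for 8 of the 10 genes, and Fbxw13 and Fbxw22 had no entry. The AT-rich string TTTAAAA, searched on both strands, was present in 7 of the 8 windows (all but Fbxw20) and in 8.74% of all 32851 promoter windows. It was printed because it sits in a stretch that is nearly the same in the 7 genes. The 7 matches in these paralogs are therefore not independent, and the share of all windows is given for scale only. Capitals mark the string.
Fbxw21 (chr9:109162033-109162062): ttggccgagtcTTTAAAAtcagagcaagct
Fbxw14 (chr9:109287683-109287712): ttggccaagtcTTTAAAAtcagatcaagct
Fbxw28 (chr9:109339666-109339695): ttggccaagtcTTTAAAAtcagatcaagct
Fbxw16 (chr9:109449151-109449180): ttggccaagtcTTTAAAAtcagagcaagct
Fbxw19 (chr9:109495890-109495919): ttggccaagtcTTTAAAAtcagaacaagct
Fbxw15 (chr9:109568274-109568303): ttggccaagtcTTTAAAAtcagagcaagct
Fbxw18 (chr9:109702692-109702721): ttggccgagtcTTTAAAAtcagagcaagct

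The printed 30 bases were the same in Fbxw14 and Fbxw28, in Fbxw21 and Fbxw18, and in Fbxw16 and Fbxw15. The whole promoter windows were not compared. The string began between 54 bases (Fbxw19) and 10 bases (Fbxw18) before the annotated start. The TATA box string TATAAA was found in 0 of the 8 windows, against 13.6% of all windows. The E-box string CACGTG was likewise found in 0 of 8, against 7.15% of all windows. Another E-box string, CAGGTG, was found in 0 of 8, against 20.2%, and TAATTG in 0 of 8, against 8%. No other strings were searched. A match is a description of letters and was not tested for function.

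RSEM assigned from 7509875 to 13988444 expected counts per oocyte in batch A and from 2709280 to 19390128 in batch B, where MI oocyte 15 was the shallowest. MII oocyte 1 had 29518 genes with a count, against 19273 to 22244 in the other oocytes of batch A. In MI oocytes 4, 8 and 9 the HTSeq to RSEM ratio of counts stood apart, as given with the counting methods. The 12 oocyte markers, zona pellucida and Gdf9 genes among them, had a mean of at least 10 counts in every group. Their summed level was 8213 to 13658 CPM (counts scaled to a common library total) in GV and 6412 to 8202 in MII oocytes of batch A, so that every MII oocyte lay below every GV oocyte. Zp1, Zp2 and Zp3 made up most of that difference (means of 661, 1322 and 1834 CPM in GV and 264, 315 and 414 in MII oocytes), whereas the means of Kit, Mos and Btg4 were slightly higher in MII oocytes. In batch B it was 4780 to 8146 in GV and 4499 to 6546 in MI oocytes. The 16 cumulus and granulosa markers summed to 25.1 to 45.5 CPM in GV and 29.6 to 40.2 in MII oocytes of batch A, and to 31.9 to 78.9 in GV and 29.5 to 87.1 in MI oocytes of batch B, with overlap in each batch. Cyp19a1, Nr5a2 and Kitl made up most of these sums. Markers with a mean of at least 10 counts numbered 8 in GV and 3 in MII oocytes of batch A, and 7 in GV and 4 in MI oocytes of batch B. Ccnd2 had a mean of 2.67 CPM in GV and 0.0539 in MII oocytes of batch A, and 4.04 in GV and 0.277 in MI oocytes of batch B, while the granulosa markers Amh and Foxl2 were under 0.1 CPM on average in every group. In batch A the means of Cyp11a1 (1.94 and 0.398), Fshr (0.922 and 0.0135) and Inha (0.689 and 0.0506) were also lower in MII oocytes. Those of Cyp19a1 (12.5 and 14.1) and Nr5a2 (10.8 and 12.1) were slightly higher. In batch B the means of Gja1 (3.52 in GV and 0.305 in MI oocytes) and Inhba (1.72 and 0.28) were also lower in MI oocytes. Nr5a2 (13.2 and 22.3) and Has2 (1.07 and 2.39) had higher means there. The part of these markers in the differences of the Fbxw genes was not tested.

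All 10 genes were expressed in every oocyte. Together they took 0.514% ± 0.185 (SD, n = 6) of the RSEM counts in GV oocytes of batch A and 0.257% ± 0.0754 (n = 6) in MII oocytes. In batch B they took 0.321% ± 0.0835 (n = 10) in GV and 0.279% ± 0.0899 (n = 15) in MI oocytes. The fewest reads behind any value were the 19 expected counts of Fbxw13 in MI oocyte 15.

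Levels of different genes were compared per kilobase of transcript. On that scale, with RSEM counts, Fbxw28 was the highest and Fbxw13 the lowest of the 10 in each of the 4 groups. With HTSeq counts Fbxw15 and Fbxw19 stood above Fbxw28 in GV oocytes of batch A, at 900 CPM ± 274 and 781 ± 309 against 732 ± 150. Their main transcripts are about as long as that of Fbxw28. In GV oocytes of batch B Fbxw15 and Fbxw28 were at 1284 ± 188 and 1274 ± 306. Each of these differences was smaller than the larger SD. By RSEM, in GV oocytes of batch A the mean level was 420 CPM per kb ± 99.3 (SD, n = 6) for Fbxw28 and 62.1 ± 21.2 for Fbxw13. The genes between them followed in the order Fbxw15 (356), Fbxw14 (346), Fbxw19 (294), Fbxw16 (236), Fbxw18 (226), Fbxw21 (224), Fbxw20 (139) and Fbxw22 (96.2). From Fbxw28 down to Fbxw21, each gene differed from the next by less than the larger of their SDs, whereas the steps from Fbxw21 to Fbxw20, to Fbxw22 and to Fbxw13 were larger than it.

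In MII oocytes Fbxw21 stood lower in the order. Its mean of 31.6 CPM per kb ± 5.78 put it 9th, below Fbxw22 (84.2 ± 16.8) by more than their SDs and above Fbxw13 (14.1 ± 4.25) by more than their SDs. Fbxw14 (318 ± 79) and Fbxw28 (374 ± 90) were within an SD of each other and above all others. In GV oocytes of batch B Fbxw28 reached 666 CPM per kb ± 176, above Fbxw15 at 443 ± 58, and Fbxw21 at 124 ± 35 lay within an SD of Fbxw18 at 120 ± 26.4. The order in MI oocytes differed from it only in Fbxw21 (91.2 ± 24.1) and Fbxw18 (96 ± 23.5), which changed places and were within an SD.

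**Figure D2:**
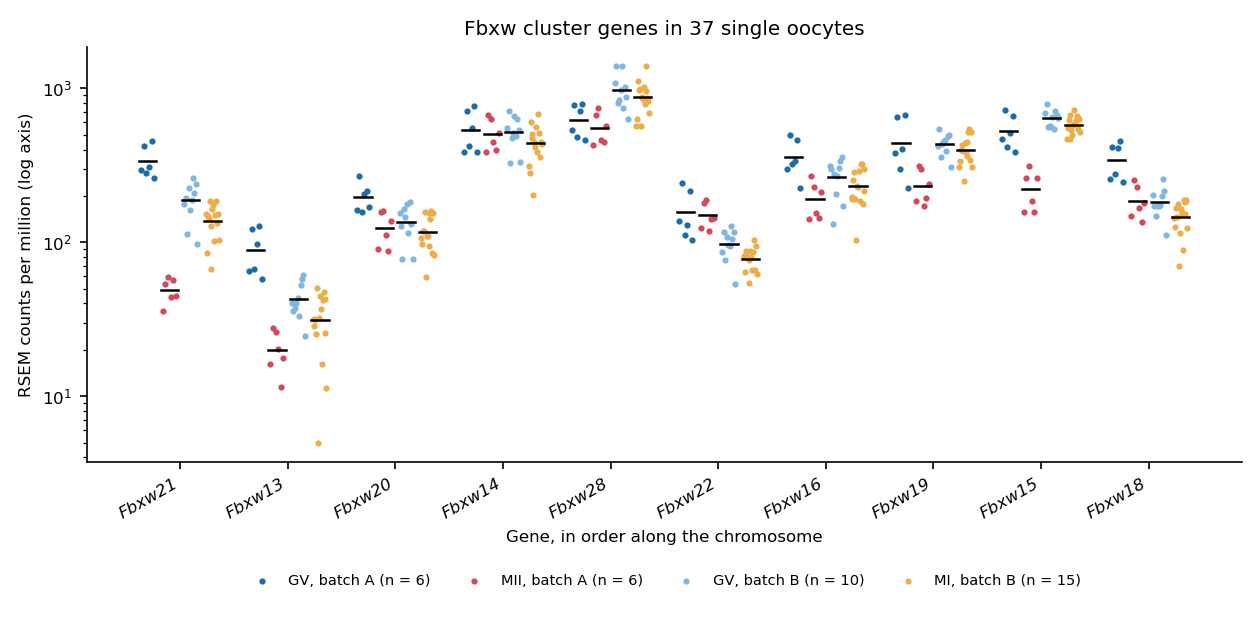
RSEM CPM (log axis) of the 10 genes in each of the 37 oocytes, points are oocytes, coloured by stage and batch, and black bars are group means. For Fbxw21, Fbxw13 and Fbxw15 the MII oocytes lie wholly below the GV oocytes of batch A, while for the GV and MI oocytes of batch B the points overlap in all 10 genes.

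Between GV and MII oocytes of batch A the difference varied widely among the 10 genes, from Fbxw21 at 0.139 of the GV level to Fbxw22 at 0.913. Fbxw21, which gave the cluster its place in these data, had 262, 303 and 455 CPM (lowest, median and highest) in GV oocytes. In MII oocytes it had 35.7, 49.1 and 59.5 CPM, so that the highest MII oocyte was far below the lowest GV oocyte. The log2 fold change (MII over GV, edgeR) was −2.84 ± 0.18 (SE). Fbxw13, its nearest neighbour and closest paralog by identity, had 57.8, 81.9 and 128 CPM in GV and 11.5, 19 and 27.8 CPM in MII oocytes. Again the groups did not overlap, and the log2 fold change was −2.23 ± 0.25.

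Fbxw15, toward the other end of the cluster, was the next lowest relative to GV. It had 386, 491 and 721 CPM in GV oocytes and 156, 223 and 313 CPM in MII oocytes. No MII oocyte reached the lowest GV oocyte, and the log2 fold change was −1.31 ± 0.21. The gene overlaps an antisense RNA, Gm42756, whose counts are given with the neighbouring features.

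Fbxw16, Fbxw18 and Fbxw19 were near 1 log2 unit lower in MII oocytes, but with overlapping groups. Fbxw16 had 225, 330 and 499 CPM in GV and 141, 183 and 268 CPM in MII oocytes (log2 fold change −0.96 ± 0.21). Fbxw18 had 245, 344 and 454 CPM in GV and 135, 172 and 253 CPM in MII oocytes (−0.96 ± 0.20), and only its highest MII oocyte passed its lowest GV oocyte. The widest spread was that of Fbxw19, with 226, 390 and 668 CPM in GV and 171, 217 and 315 CPM in MII oocytes (−0.97 ± 0.25). Fbxw20 was closer to its GV level, with 157, 188 and 271 CPM in GV and 87.8, 124 and 160 CPM in MII oocytes (−0.73 ± 0.18).

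The 3 genes most alike in coding sequence, Fbxw14, Fbxw28 and Fbxw22, had nearly the same levels at both stages. Fbxw14 had 387, 486 and 762 CPM in GV and 384, 480 and 673 CPM in MII oocytes, with a log2 fold change of −0.14 ± 0.21. Fbxw28 had 459, 621 and 786 CPM in GV and 431, 514 and 749 CPM in MII oocytes (−0.23 ± 0.18). Fbxw22 had 104, 133 and 243 CPM in GV and 118, 142 and 187 CPM in MII oocytes (−0.13 ± 0.21). For each of the 3 the groups overlapped over most of their range.

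A gene was called when its p, adjusted over all genes, was under 0.05 and its level differed more than 2-fold. Of the 10 genes, 3 were called lower at MII (Fbxw21, Fbxw13 and Fbxw15), where 6.32% of the 12929 genes tested were called lower. For the same 3 genes every MII oocyte lay below every GV oocyte, which held for 5.11% of all genes tested. The log2 fold change of all 10 was below 0, with a median of −0.96, beside a median of 0.01 over all genes. Since the cluster was picked through this contrast, these counts are a description and no more.

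The scale of the comparison mattered for the remaining genes. CPM levels are relative to the TMM-normalized size of each library and do not give an amount per oocyte. ERCC spike-in RNAs had 44663 to 143062 counts per oocyte in batch A and at most 32 in batch B, so that they could serve as a scale in batch A. With that scale the median of all genes moved from 0.01 to −0.72 and that of the 10 genes from −0.96 to −1.70, and 7 of the 10 were called lower, Fbxw16, Fbxw18, Fbxw19 and Fbxw20 in addition, where 29.3% of all 12929 genes were called lower. On that scale Fbxw14, Fbxw28 and Fbxw22 were at −0.88, −0.97 and −0.90 with RSEM. With HTSeq and spike-ins the median of all genes was at −0.73 and 8 of the 10 were called lower, Fbxw22 (−1.14) in addition, where 27.2% of all 13409 genes were. All 10 genes were below 0 on the spike-in scale with either table.

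**Figure D3:**
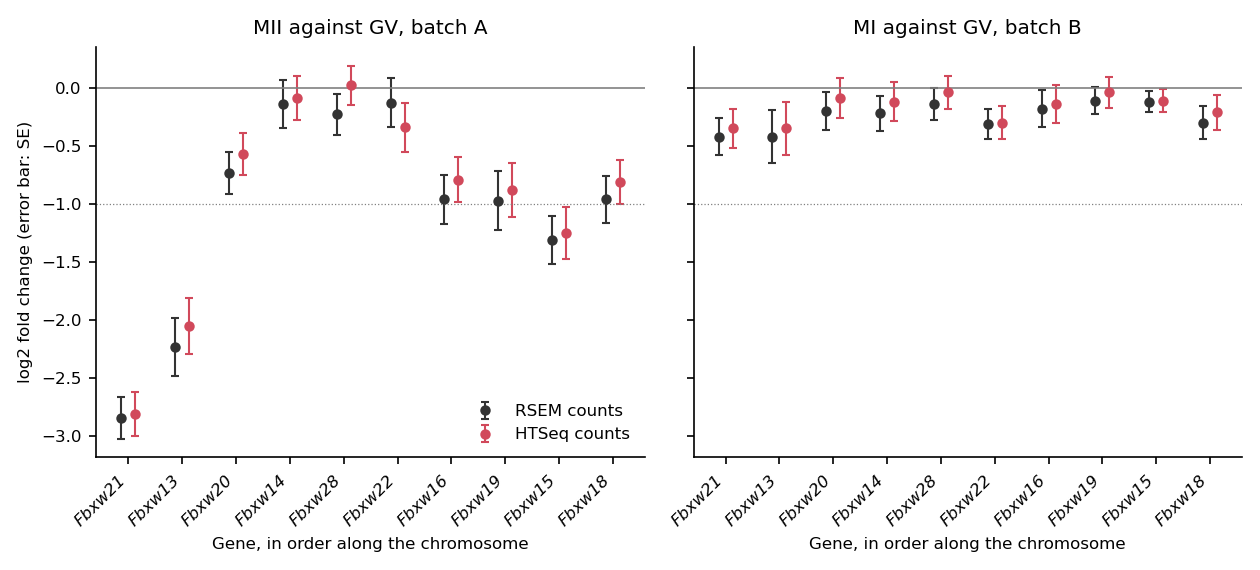
Log2 fold change of each gene against GV with its standard error, in the order along the chromosome, from RSEM (black) and HTSeq (red) counts; MII oocytes of batch A on the left, MI oocytes of batch B on the right, and a dotted line at −1. Fbxw21 is at −2.84 and −2.81 and Fbxw13 at −2.23 and −2.05 at MII, and all values for MI lie between −0.42 and −0.04.

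The MI oocytes of batch B were not used in choosing the genes, so that the comparison with their own GV oocytes was tested. No gene of the 10 passed. With edgeR 0 of 10 were called, where 0.121% of 12419 genes were. With DESeq2 0 of 10 were called as well, where 116 of 12419 genes were. At an unadjusted p under 0.05, 3 of the 10 were lower (Fbxw21, Fbxw22 and Fbxw18), beside 4.77% of all genes. All 10 log2 fold changes were below 0, with a median of −0.21 beside 0.02 over all genes, and 47.8% of all genes tested were below 0.

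Fbxw21 had 97.4, 192 and 261 CPM (lowest, median and highest) in GV oocytes of batch B and 67.3, 148 and 185 CPM in MI oocytes. The ranges overlapped over most of their length, and the log2 fold change was −0.42 ± 0.16 (adjusted p = 0.28). For Fbxw13 the values were 24.7, 40.2 and 60.8 CPM in GV and 4.98, 31.9 and 50.4 CPM in MI oocytes, with −0.42 ± 0.23 (adjusted p = 0.53). The lowest value was that of MI oocyte 6, with 38 counts. Fbxw15, lower at MII in batch A, had 638 CPM ± 80.3 (SD, n = 10) in GV and 579 ± 76.3 (n = 15) in MI oocytes, with medians of 645 and 574, and its log2 fold change of −0.12 ± 0.09 gave an adjusted p of 0.68.

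The other genes were at −0.31 ± 0.13 (Fbxw22), −0.30 ± 0.14 (Fbxw18), −0.22 ± 0.15 (Fbxw14), −0.20 ± 0.16 (Fbxw20), −0.18 ± 0.16 (Fbxw16), −0.14 ± 0.14 (Fbxw28) and −0.11 ± 0.12 (Fbxw19), with adjusted p from 0.33 to 0.8. The lowest bound of any 95% interval was −0.89, for Fbxw13. On this scale, which is relative to the library, a change of 1 log2 unit between GV and MI was thus outside the interval of each of the 10 genes. Spike-in counts in batch B were too low to set another scale, so that changes in amount per oocyte were not tested. The changes at MI and at MII come from different batches and were not tested against each other.

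Reads from near-identical paralogs can be counted in different ways. RSEM shares a read among the transcripts it fits, whereas HTSeq, by default, leaves out a read that aligns to more than 1 place; the settings used are not given in the sources used here. Fbxw14 and Fbxw28 shared the most sequence. Of the 50-base windows of the main Fbxw14 transcript, 67.6% occur in another annotated gene, most of them (65.1%) in Fbxw28, and 30.2% of windows as long as the 150-base reads still do. The values for Fbxw28 were 67.1% and 32.2%.

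Fbxw16 followed with 26.7% of its 50-base windows shared, of which the largest part was with Gm42494 (11.5%), a feature annotated on the opposite strand within Fbxw16. Fbxw15 had 17%, the largest part again with an opposite-strand neighbour (Gm42756). The other 6 genes shared 7.41% (Fbxw18) to 13.2% (Fbxw19) of their 50-base windows, and 0% of their 150-base windows. The windows describe annotated sequence on either strand, not the share of reads that could not be placed.

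The HTSeq to RSEM ratio of counts was low for the 3 genes with the most shared windows, but not for Fbxw15. In the 34 oocytes other than MI oocytes 4, 8 and 9 the median ratio was 2.06, taken over the 8243 genes that averaged 100 HTSeq counts or more. Fbxw14 had a ratio of 1.39 (from 1.16 to 1.59 in single oocytes), Fbxw28 1.55 (1.23 to 1.82) and Fbxw16 1.67 (1.55 to 2.06), and 6.03%, 8.3% and 10.8% of genes had a lower ratio than these (of 8241 ranked). The other 7 genes had ratios from 2.04 (Fbxw22) to 2.36 (Fbxw15, the highest of the 10 over these oocytes). The ratio of Fbxw15 differed by batch, with 1.83 to 2.14 in batch A and 2.24 to 2.78 in these oocytes of batch B. In every oocyte of batch A it was below that of Fbxw18. In MI oocytes 4, 8 and 9 the median gene had a ratio of 1.12, Fbxw28 0.997 and Fbxw21 1.38.

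**Figure D4:**
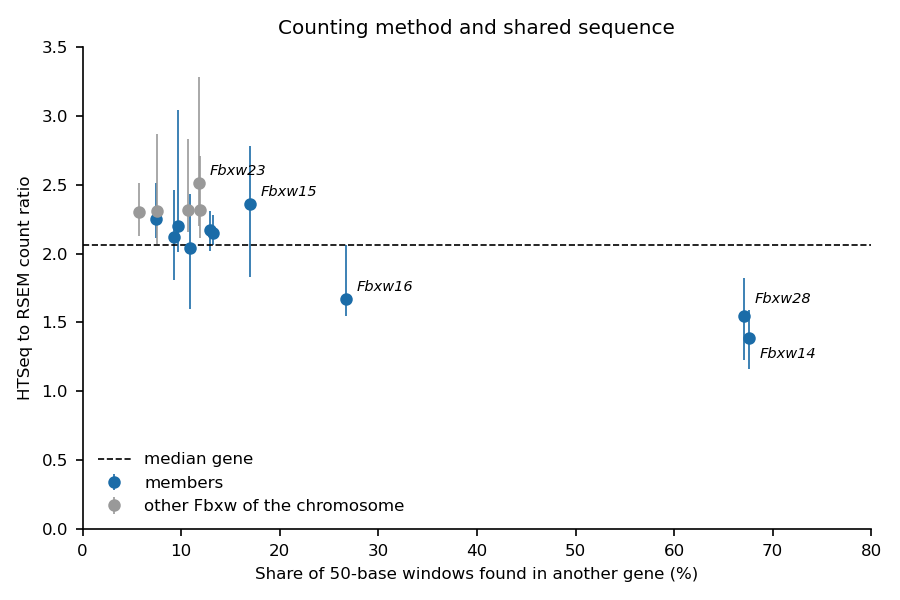
Ratio of HTSeq to RSEM counts, summed over the 34 oocytes other than MI oocytes 4, 8 and 9, against the share of each gene's 50-base windows found in another annotated gene (%). Bars span the lowest and highest single oocyte and the dashed line is the median gene at 2.06. Fbxw14 and Fbxw28 stand at 67.6% and 67.1% with ratios of 1.39 and 1.55.

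With HTSeq the same 3 genes were called lower at MII (5.04% of 13409 genes were called lower), with log2 fold changes of −2.81 ± 0.19 for Fbxw21, −2.05 ± 0.24 for Fbxw13 and −1.25 ± 0.22 for Fbxw15. Fbxw28 went from −0.23 with RSEM to 0.02 ± 0.17 with HTSeq, and Fbxw22 went from −0.13 to −0.34 ± 0.21. Their HTSeq to RSEM ratios differed by stage in batch A, without overlap. Fbxw28 had 1.23 to 1.47 in GV and 1.55 to 1.67 in MII oocytes. Fbxw22 had 1.98 to 2.12 in GV and 1.6 to 1.82 in MII oocytes. Ratios of Fbxw20 and Fbxw18 were also higher in MII oocytes without overlap. The cause was not tested. In batch B, HTSeq gave values from −0.35 (Fbxw21 and Fbxw13) to −0.04 (Fbxw28 and Fbxw19). With edgeR 0 of the 10 were called there, where 0% of 12441 genes were. DESeq2 called 0 of the 10 as well, where it called 1 of 12441 genes. At an unadjusted p under 0.05 only Fbxw22 was lower, beside 3.5% of all genes.

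Because reads can pass from Fbxw14 to Fbxw28 and back, the sum of the pair was also computed. It was 1160 CPM ± 312 (SD, n = 6) in GV and 1063 ± 250 in MII oocytes of batch A with RSEM, and 1317 ± 297 and 1328 ± 316 with HTSeq. In batch B the sum was 1500 ± 371 (n = 10) in GV and 1317 ± 339 (n = 15) in MI oocytes with RSEM. Within the pair, Fbxw28 took 54.1% ± 2.57 of the RSEM level in GV and 52.3% ± 1.55 in MII oocytes of batch A, but 65.1% ± 3.19 and 66.7% ± 2.87 in GV and MI oocytes of batch B. HTSeq gave 55.8% ± 3.13, 57.4% ± 1.78, 66.9% ± 3 and 68.5% ± 3.54. The share was thus higher in batch B than in batch A by more than the SDs under both counting methods, and the part of batch in it was not tested.

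The transcript table showed where a gene's level hid unlike transcripts. Of the 28 annotated transcripts of the 10 genes, 26 passed the filter on low counts in batch A, and 9 were called lower at MII, where 4.23% of 22461 transcripts were. These were Fbxw21-201 and Fbxw21-202, Fbxw13-201 and Fbxw13-203, Fbxw15-201 and Fbxw15-203, Fbxw16-201, Fbxw19-201 and Fbxw22-202. Without MII oocyte 1 the number was 5, where 3.28% of 23349 transcripts were called lower, with Fbxw15-203, Fbxw16-201, Fbxw19-201 and Fbxw21-202 no longer called. RSEM divides reads among overlapping transcripts of a gene by a model, so that minor transcripts carry that uncertainty beyond the spread of oocytes.

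The transcripts of Fbxw22 differed from each other. The second, Fbxw22-202, carries the biotype nonsense_mediated_decay in GENCODE, after the pathway that removes RNAs with early stop codons. It had 347, 518 and 778 expected counts (lowest, median and highest) in GV oocytes of batch A and 77, 115 and 219 in MII oocytes, without overlap, and a log2 fold change of −1.98 ± 0.27. The coding transcript Fbxw22-201 was at 0.15 ± 0.24. The share of Fbxw22-202 in its gene was 25.5% ± 4.62 (SD, n = 6) in GV and 6.69% ± 2.04 in MII oocytes.

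In GV oocytes of batch B, however, Fbxw22-202 made up 8.94% ± 4.97 (n = 10) of the gene, from 2.1% to 17.3%, which lay below every GV oocyte of batch A (18.7% to 33%). MI oocytes had 11.6% ± 6.5 (n = 15), and the change from GV to MI was 0.08 ± 0.47 (adjusted p = 1). The high share of this transcript in GV oocytes was therefore seen in batch A and not in batch B.

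Within Fbxw21, the main transcript Fbxw21-201 was at −3.05 ± 0.20 at MII. The longer Fbxw21-203 stood at 0.01 ± 0.34, with 32, 94 and 143 expected counts in GV and 48, 71 and 171 in MII oocytes. Its share of the gene went from 1.91% ± 0.786 to 13.4% ± 5.04, without overlap. In batch B the share was 4.95% ± 1.84 in GV and 10.8% ± 8.68 in MI oocytes, and the log2 fold change of Fbxw21-203 was 0.49 ± 0.30 (adjusted p = 0.85).

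Transcripts annotated with a retained intron were listed for Fbxw16, Fbxw19 and Fbxw20. Fbxw19-202 had 73, 117 and 142 expected counts in GV and 129, 168 and 249 in MII oocytes of batch A, a log2 fold change of 0.73 ± 0.21 beside −1.06 ± 0.28 for the coding Fbxw19-201. Its share of the gene was 2.17% ± 0.935 in GV and 6.36% ± 1.49 in MII oocytes, without overlap. Fbxw16-202 was at −0.21 ± 0.23 beside −1.06 ± 0.23 for Fbxw16-201, with a share of 6.95% ± 1.29 in GV and 12.2% ± 3.03 in MII oocytes, also without overlap. Fbxw20-203, with at most 43 counts in an oocyte of batch A, was at −0.03 ± 0.73, with a 95% interval from −1.60 to 1.54.

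Transcripts of the 10 genes were tested in batch B. Of the 27 transcripts tested, edgeR called 0, as it did for 0% of 22717 transcripts. DESeq2 called 0 of the 27 as well, where it called 103 over all transcripts. At an unadjusted p under 0.05, 3 were lower (Fbxw21-201, Fbxw22-201 and Fbxw18-201), beside 2.78% of all transcripts. Fbxw19-202 was at −0.15 ± 0.30 and Fbxw16-202 at 0.19 ± 0.18 (adjusted p = 1 and 0.97).

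**Figure D5:**
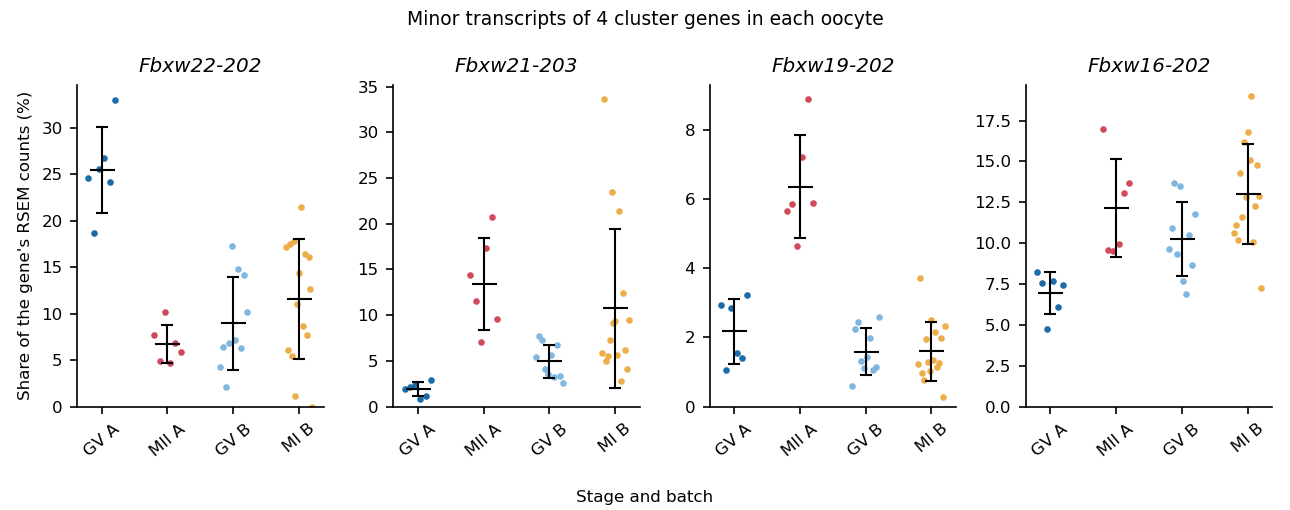
Share of the gene's RSEM expected counts (%) taken by Fbxw22-202, Fbxw21-203, Fbxw19-202 and Fbxw16-202 in each oocyte; black marks are the mean and SD, and each panel has its own axis from 0. Fbxw22-202 is at 25.5% in GV oocytes of batch A and at 6.69% to 11.6% in the other groups, and the other 3 transcripts have higher shares in MII than in GV oocytes of batch A.

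Chromosome 9 holds 5 more Fbxw features in or beside the cluster, of which Fbxw23 is annotated as a pseudogene and Fbxw24, Fbxw25, Fbxw26 and Fbxw27 are coding. They are not among the 10 genes. Fbxw24 was the most abundant of the 15 Fbxw features of GV oocytes in batch A, with 651 CPM per kb ± 240 (SD, n = 6), and had 401 ± 72 in MII oocytes. The log2 fold changes at MII were −0.33 ± 0.23 (Fbxw23), −0.76 ± 0.21 (Fbxw24), −0.85 ± 0.16 (Fbxw25), −0.88 ± 0.18 (Fbxw26) and −0.78 ± 0.18 (Fbxw27). Their range lay between that of Fbxw14, Fbxw28 and Fbxw22 and that of Fbxw16, Fbxw18 and Fbxw19. All MII oocytes were below all GV oocytes for Fbxw25 and Fbxw26, as for 5.11% of all genes tested. Each of the 5 was lower at MII by less than the 2-fold limit. In batch B they were between −0.25 and −0.03, and none was called.

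Of the 8 other annotated features between Fbxw21 and Fbxw18, only Gm42756 had a mean of at least 10 expected counts in a group. It is an antisense RNA on the plus strand (chr9:109537100-109552780) whose 3′ end overlaps that of Fbxw15. It had 19, 23 and 30 expected counts in GV and 131, 171 and 188 in MII oocytes of batch A, so that every MII oocyte was higher, and edgeR gave a log2 fold change of 2.89 ± 0.25 (adjusted p = 3.6e-06). Its RSEM counts were thus higher at MII, where those of Fbxw15 were lower. In batch B it was at 0.36 ± 0.33 (adjusted p = 0.75). With HTSeq counts it did not pass the filter on low counts in either batch. The difference was therefore seen with RSEM alone and was not tested with HTSeq. Smart-seq2 libraries do not keep strand, and reads from the overlap of the 2 genes cannot be told apart.

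The partners of F-box proteins are given for comparison. Of 34 genes listed for the SCF machinery (core subunits, neddylation, E2 enzymes and F-box genes elsewhere in the genome), 33 were tested in batch A and 1 was called, where 8.47% of genes were called in either direction, and their median log2 fold change was 0.06. The adaptor Skp1a had 1237 CPM ± 357 (SD, n = 6) in GV and 882 ± 239 in MII oocytes, at −0.55 ± 0.21 (adjusted p = 0.075). The scaffold Cul1 had 647 ± 112 and 890 ± 167 CPM, at 0.40 ± 0.15 (adjusted p = 0.064). With spike-in scaling Cul1 was at −0.34 (adjusted p = 0.21), a change of sign, and Skp1a was at −1.30 (adjusted p = 0.0003) and called lower.

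The RING subunit Rbx1 had 61.5 CPM ± 12.4 in GV and 59 ± 16.4 in MII oocytes, at −0.12 ± 0.19 (adjusted p = 0.69). The related RING protein Rnf7 had 10.4 ± 5.49 and 7.5 ± 3.34 CPM, at −0.55 ± 0.36 (adjusted p = 0.3). With spike-in scaling Rbx1 was at −0.88 (adjusted p = 0.0092) and Rnf7 at −1.31 (adjusted p = 0.0091), of which Rnf7 was past the 2-fold limit. The median of all genes was at −0.72 on that scale. The gene called lower was Fbxw10, another F-box gene with WD40 repeats, located outside the cluster, with 3.19 CPM ± 1.55 in GV and 0.839 ± 0.474 in MII oocytes. Its log2 fold change was −1.98 ± 0.53 (adjusted p = 0.016), and with HTSeq −1.55 ± 0.41 (adjusted p = 0.016). With all oocytes and batch as a covariate Fbxw10 was at −1.91 (adjusted p = 0.15), no longer called. In batch B the 4 core subunits were at −0.31 ± 0.10 (Skp1a, adjusted p = 0.21), 0.00 ± 0.11 (Cul1, adjusted p = 1), −0.31 ± 0.18 (Rbx1, adjusted p = 0.54) and −0.09 ± 0.42 (Rnf7, adjusted p = 0.97).

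Genes outside the 10 with the pattern most like Fbxw21 were ranked by Pearson correlation of log2(CPM + 1) over the 37 oocytes, after the mean of each batch was subtracted, among 6592 genes of at least 10 CPM on average. Stage differences and the composition of each library enter this measure, and it is given as a description. The first 5 were Rps13 (r = 0.917) and Rps26 (0.899), which encode ribosomal proteins, Psmb7 (0.909), a proteasome subunit, Eef1a1 (0.906), a translation elongation factor, and Zp3 (0.899), a zona pellucida glycoprotein. Rps13 had 101 CPM ± 33.2 in GV and 9.78 ± 5.59 in MII oocytes of batch A, and 30 ± 8.93 in GV and 21.5 ± 6.74 in MI oocytes of batch B. Eef1a1 had 324 ± 43.3 and 113 ± 13.6 CPM in batch A, and 180 ± 45.9 and 155 ± 40.4 in batch B.

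On the same measure the other genes of the cluster ranged from r = 0.871 for Fbxw13 and 0.827 for Fbxw15 to 0.389 for Fbxw14 and 0.388 for Fbxw28. Fbxw18, Fbxw16, Fbxw19 and Fbxw20 lay between, at 0.804, 0.767, 0.756 and 0.711, and Fbxw22 was at 0.42. The 3 genes with the lowest r were those with the smallest differences at MII, which enter the correlation.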

How the data were processed

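The authors trimmed reads with Trim Galore 0.6.4 and, per the study's methods, used the mm10 genome with GENCODE VM20 and ERCC sequences. The deposited tables hold, for genes and transcripts, RSEM 1.3.1 expected counts, and HTSeq 0.12.4 counts per gene after alignment with STAR 2.7.6a, all without normalization. HTSeq settings are not given in the sources used here. The 10 genes, the lists and the tests were chosen with earlier results of these data known.

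Expected counts were rounded. The 92 ERCC features were left out of libraries and tests. Features passing edgeR's filterByExpr were tested with its quasi-likelihood test (edgeR 4.0.16, R 4.3.3) after TMM normalization, on GV and MII oocytes of batch A or GV and MI oocytes of batch B. A feature was called at an adjusted p (Benjamini-Hochberg, all features) below 0.05 with more than a 2-fold difference. The SE is the log2 fold change divided by the square root of F. CPM used TMM library sizes over all 37 oocytes, and CPM per kb divided each transcript by its length. The fit was tested on simulated data. Shared windows and coding starts came from GENCODE M21 (54723 of 54844 gene features found), promoters from RefSeq, and alignments from MAFFT 7.526.

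Named genes were the 10 genes, every SCF core subunit, up to 3 called SCF genes in each direction, other Fbxw features and neighbours with a mean of at least 10 counts, and the 5 genes most like Fbxw21; Fbxw21-203 and the retained-intron transcripts were picked after their values were seen. Alternatives were no filter, DESeq2 1.42.0, RLE or spike-in scaling, the replicate number as a block, adjusted p alone, HTSeq for RSEM, all oocytes with batch as a covariate, and leaving out the libraries named above. Depth was 2709280 to 19390128 expected counts per oocyte, and read counts without molecular identifiers limit the precision of low values.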

Additional observations from a re-analysis of the deposited data

How the results depend on the processing

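Fbxw21, Fbxw13 and Fbxw15 were called lower at MII under every alternative run with RSEM or HTSeq counts. Spike-in scaling raised the number from 3 to 7 with RSEM and to 8 with HTSeq, where 29.3% and 27.2% of all genes were called lower, and adjusted p alone to 7 with each, where 20.6% and 15.5% of all genes passed in either direction. Fbxw28 with HTSeq, at 0.02, was at −0.75 with spike-ins, −0.04 with no filter and 0.00 with RLE factors or DESeq2. The 9 transcripts called became 5 without MII oocyte 1 (3.28% of all transcripts called lower). In batch B 0 genes and 0 transcripts of the cluster were called under every alternative, and no log2 fold change of the 10 genes changed sign there. Without MI oocyte 15, the shallowest, 0 of the 10 were called as well, where 21 of 12390 genes were with RSEM and 0 of 12388 with HTSeq.

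Over all genes, the 1095 RSEM calls of batch A became 1859 with no filter, 3919 with spike-ins, 653 with batch as a covariate and 2662 with adjusted p alone; the 777 HTSeq calls became 3667 with spike-ins and 2077 with adjusted p alone. The 15 RSEM calls of batch B became 40 with no filter, 116 with DESeq2, 0 with the replicate block, 36 without MI oocytes 4, 8 and 9, 107 with batch as a covariate and 0 with HTSeq. The 0 HTSeq calls of batch B became 2990 with no filter and 1 with DESeq2, and the 0 transcript calls became 2 and 103. Transcripts called in batch A went from 1252 to 532 with the replicate block. The causes were not tested.

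The replicate numbers did not pair oocytes: same-numbered oocytes correlated over 0.1 in 1 of 6 pairs of batch A and 1 of 10 of batch B. With the replicate block 3 genes of the cluster were still called lower at MII with RSEM, where 668 of 12929 genes were. With HTSeq 3 were as well, where 486 of 13409 genes were. Of the cluster's transcripts 6 were called lower with the block, where 361 of 22461 transcripts were. Fbxw15-203, Fbxw19-201 and Fbxw21-202 were no longer called. Sign changes were Fbxw22-202 (−0.01) and Fbxw14-202 (0.02) in batch B with the block, Fbxw15-202 (−0.01) with no filter, Rnf7 (0.09) in batch B with the block, and, in batch A, Fbxw21-203 (−0.02) with no filter and with the block, Fbxw20-203 (0.04) with the block, Fbxw14-203 (−0.02) with no filter, Fbxw14-204 (0.15) without MII oocyte 1, and Cul1 (from 0.40 to −0.34) with spike-ins. Fbxw10 was not called with batch as a covariate (adjusted p = 0.15), and its range over the alternatives was 0.00053 to 0.15.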
